A study of Mus musculus with 2 samples.

Results

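The Lyve1 Folr2 Cd163 resident cardiac macrophages of the mouse heart numbered 463 of the 5263 CD45+ cells kept, and 463 of the 3060 cells that passed a gate for monocytes and macrophages. They were chosen by measured reads alone. A cell was counted when it had at least 200 CPM (reads of a gene per 1000000 reads of the cell) of Csf1r and 2000 CPM of Lyz2, at least 100 CPM of at least 2 of the 4 genes Lyve1, Folr2, Cd163 and Cbr2, and less than 1000 CPM of Saa3, 50 CPM of Mki67 and 200 CPM of Cd79a. The levels of these genes in the chosen cells are therefore a description. The remaining 2597 cells that passed the gates on Csf1r, Lyz2, Saa3, Mki67 and Cd79a are called the other gated cells.

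Resident macrophages settle in the heart before birth and renew themselves there with little input from the blood, whereas macrophages that carry the chemokine receptor Ccr2 derive from circulating monocytes. In many organs, the resident cells that lie along vessels carry Lyve1, a hyaluronan receptor, Folr2, a folate receptor, and Cd163, the receptor for haemoglobin bound to haptoglobin. They are known for taking up dying cells and debris, and in several tissues their Lyve1-high cells carry little MHC class II, the molecules that show peptides to CD4+ T cells.

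Hearts of male 8-week-old mice on a C57BL/6 background were studied 1 week after sham surgery or transverse aortic constriction (TAC), in which a suture narrows the aorta and loads the left ventricle with pressure. The 5 groups were WT sham, CD3e-/- sham, WT TAC, CD3e-/- TAC and WT TAC with antibody against CD8, and where 5 values follow each other they stand in this order. CD3e-/- mice lack CD3e, a chain of the T cell receptor complex, and hence mature T cells, but keep other leukocytes. The antibody was injected from the day of surgery on, and the labels give the strain as C57BL/6N for the pooled library, without a separate entry for CD3e-/- mice. The CD45+ cells were selected with magnetic beads and given hashtags by group, and all groups together formed a single TAS-Seq library. It was made with BD Rhapsody, a platform that captures cells in microwells and barcodes their RNA on beads. Each group was thus 1 sample, the number of hearts behind each hashtag is not given in the sources used here, and no difference between groups has a replicate check or a p-value. Intervals are 95% intervals for counting error alone. For gene levels they count reads, which are copies of fewer molecules, so they are too narrow.

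The groups gave 1000, 835, 1615, 919 and 894 kept cells, and no cell barcode was shared between hashtags. The median depth of the resident macrophages was 70722, 84408, 91268.5, 156224 and 85536 reads per cell, and their summed reads lay between 6005280 and 13661900 per group. The cells of CD3e-/- TAC were thus the most deeply read. The T cell receptor gene Cd3g was at 45.6, 0.555, 17.5, 0.0661 and 22.5 CPM over all kept cells, which was lowest in both CD3e-/- groups. Cd3e itself was at 17.8, 3.73, 10.8, 5.64 and 13.6 CPM, also lowest there but less far apart. Within the resident macrophages Cd3e was at 0.614, 16.8, 4.25, 2.90 and 0.240 CPM, highest in CD3e-/- sham. Cd8a was at 9.81, 0.979, 7.40, 0.558 and 6.55 CPM, so that the group labelled CD8-depleted was close to WT TAC in this transcript. Wherever that group is named, the label is meant.

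The resident macrophages were a larger share of the gated cells in WT sham hearts than in any other group. They numbered 145, 53, 128, 53 and 84 cells. WT sham had 27.4% of the gated cells, with an exact binomial interval of 23.6% to 31.4%. CD3e-/- sham had 12.3%, with an interval of 9.33% to 15.7%, and WT TAC 12.8%, with an interval of 10.8% to 15%. CD3e-/- TAC had the lowest share at 9.40% (interval 7.12% to 12.1%), and the CD8-depleted group had 15.8% (interval 12.8% to 19.1%). Of all kept CD45+ cells they were 14.5%, 6.35%, 7.93%, 5.77% and 9.40%. The interval of WT sham overlapped with none of the others.

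The difference in the share of gated cells, WT TAC minus WT sham, was -14.6 percentage points, with an interval from -19.0 to -10.3 points. CD3e-/- sham minus WT sham was -15.1 points (interval -19.9 to -10.1). In CD3e-/- hearts the difference between TAC and sham was -2.87 points, and its interval of -6.92 to 0.987 included 0. CD3e-/- TAC minus WT TAC was -3.39 points, and the upper bound of its interval, -6.47 to -0.0806, came close to 0. The CD8-depleted group minus WT TAC was 2.97 points, with an interval of -0.633 to 6.83 that included 0. With every cell thinned to 38041 reads, the 5 shares were 27.9%, 12.6%, 12.6%, 10.02% and 15% of gated cells. The selection on magnetic columns and the number of recruited cells both enter such a share, so that fewer resident cells and more of the other gated cells cannot be told apart.

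**Figure D1:**
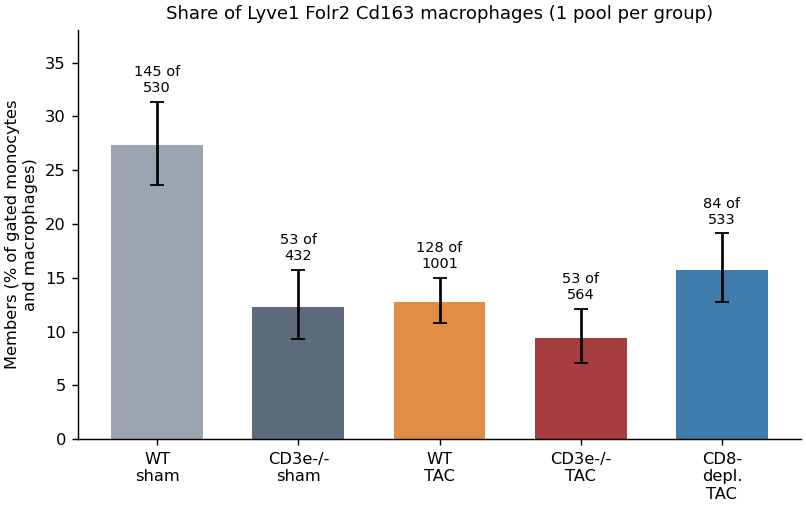
Share of the Lyve1 Folr2 Cd163 resident macrophages among gated monocytes and macrophages, in percent, by group (1 sample each); bars give the 95% exact binomial interval. WT sham, at 27.4%, lies above the other 4 groups, which lie between 9.40% and 15.8%.

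Among the 4 genes of the rule, Cbr2, a carbonyl reductase, reached 100 CPM in 91.7%, 92.5%, 92.2%, 94.3% and 95.2% of the resident macrophages. Folr2 did so in 70.3%, 56.6%, 82.8%, 79.2% and 72.6%. Cd163 did so in 82.8%, 73.6%, 60.2%, 52.8% and 70.2%, and was thus most frequent in WT sham. Lyve1 did so in 45.5%, 50.9%, 35.2%, 18.9% and 27.4%, so that in every group but CD3e-/- sham most of the cells were chosen without it. 216 cells passed with 2 of the 4 genes, 155 with 3 and 92 with all 4, and the cells with all 4 numbered 39, 13, 26, 4 and 10. The most frequent pairing without a further marker was Cd163 with Cbr2 in 99 cells, followed by Folr2 with Cbr2 in 83, of which 37 came from WT TAC and 21 from CD3e-/- TAC. At the limit, the values of the second-highest marker in the nearest cells inside were 101, 109, 109, 110 and 110 CPM, and in the nearest cells outside 99.1, 96.1, 89.5, 88.8 and 88.1 CPM, without regard to group.

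The summed level of Cd163 was 878, 477, 403, 151 and 552 CPM, highest in WT sham and lowest in CD3e-/- TAC, and its median per cell was 602, 342, 288, 109 and 390 CPM. Folr2 was at 737, 537, 589, 591 and 495 CPM and Cbr2 at 1427, 896, 983, 779 and 944 CPM, both highest in WT sham. Lyve1 was at 751, 891, 494, 534 and 503 CPM, but in CD3e-/- TAC a single cell gave 66.6% of its reads. After thinning to equal depth, a Lyve1 read was seen in 46.3%, 49.0%, 37.9%, 20.0% and 29.7% of the resident macrophages. In other gated cells with under 500 CPM of Ccr2, the same share was 0.676%, 2.38%, 0%, 0.909% and 0%, and in B cells, which should lack the gene, 2.13% in WT sham and 0% elsewhere.

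**Figure D2:**
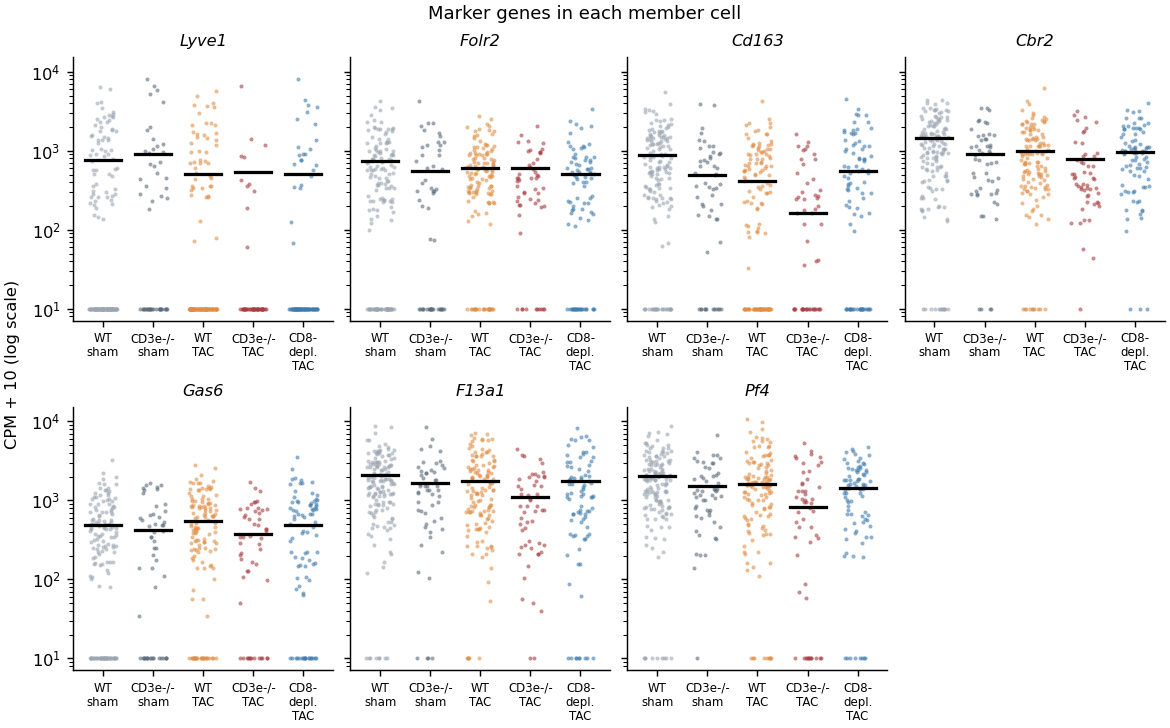
Level of the rule's 4 genes and of Gas6, F13a1 and Pf4 in each resident macrophage, by group, in CPM with 10 added, on a log scale; points are cells and the bar is the level of the summed reads. Many cells hold no Lyve1, most hold F13a1, and the Cd163 bar is lowest in CD3e-/- TAC, at 151 CPM.

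Genes outside the rule were compared with the other gated cells of the same group. Over all genes with at least 50 CPM in the resident macrophages or in the other gated cells of any group, 1.23% were at least 2-fold higher in the resident macrophages in all 5 groups and 1.11% at least 2-fold lower. Of 26 further genes listed for resident macrophages, 14 were higher in all 5 groups and 0 lower. The 14 were Gas6, F13a1, Pf4, Mrc1, Timd4, Stab1, Maf, Fcna, Ltc4s, Selenop, Fcgrt, Igfbp4, Colec12 and Dab2. Of 17 genes of monocytes and recruited macrophages, 11 were lower in all 5 groups, among them Ccr2, Ly6c2, Plac8, Chil3 and Vcan. The cells were chosen by reads of the same cells, so that these counts are a description.

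Gas6, a ligand that bridges dying cells to the receptors Axl and Mertk, was at 477, 412, 545, 360 and 475 CPM in the resident macrophages and at 58.7, 50.3, 56.3, 42.2 and 49.3 CPM in the other gated cells. Pf4, a chemokine best known from platelets, was at 2045, 1501, 1599, 810 and 1440 CPM, against 381, 303, 207, 140 and 230 CPM. F13a1, the catalytic chain of clotting factor XIII, was at 2106, 1647, 1733, 1094 and 1733 CPM, against 487, 453, 359, 352 and 439 CPM. All 3 genes were thus at least 2-fold higher in the resident macrophages in all 5 groups, as were 1.23% of all genes measured. Among the resident macrophages, Pf4 and F13a1 were lowest in CD3e-/- TAC. In the other gated cells with under 500 CPM of Ccr2 and 1000 CPM of Ly6c2, pooled over groups, the 3 genes were at 148, 535 and 352 CPM. At equal depth, a Pf4 read was seen in 72.3%, 65.1%, 53.7%, 52.7% and 59.0% of those cells. An F13a1 read was seen in 55.4%, 43.7%, 45.4%, 45.5% and 51.0%. Reads of these genes were thus not particular to the resident macrophages. Among genes outside the rule, Gas6 stood first by the lowest of its 5 log2 ratios (2.81, with 10 CPM added to both sides), followed by Ltc4s (2.4), Pf4 (2.27), the complement gene C4b (2.24), the scavenger receptor Stab1 (2.05) and the ferroxidase Cp (1.93).

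**Figure D3:**
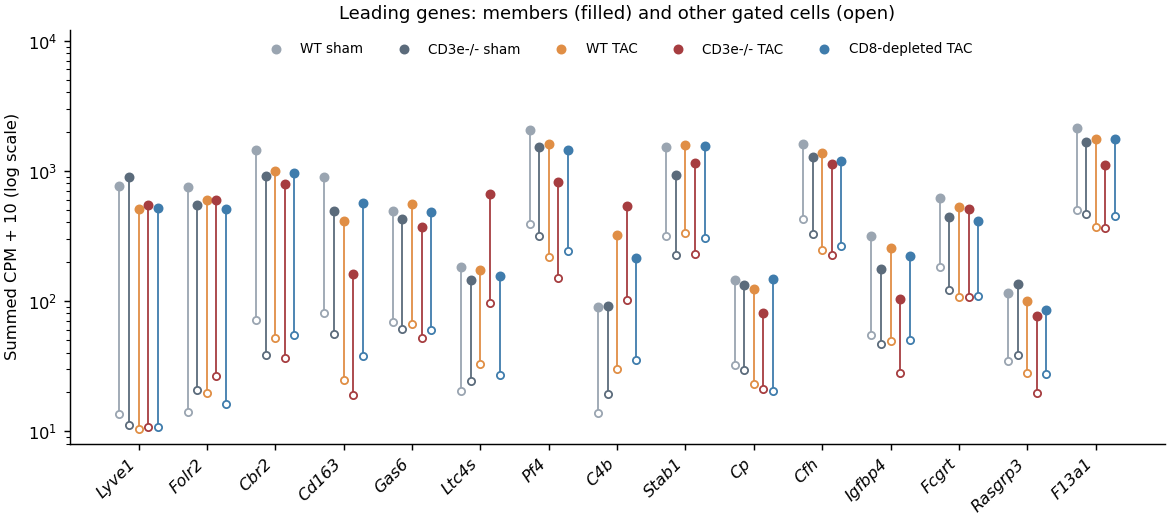
The 15 genes with the highest ratio of resident macrophages over other gated cells, ranked by the lowest of the 5 groups; the axis gives the summed level in CPM on a log scale, with filled points for resident macrophages and open points for other gated cells of each group. Lyve1, Folr2, Cbr2 and Cd163 belong to the rule, and Gas6 leads the genes outside it.

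Cell neighbourhoods were computed among the gated cells without the genes of the rule. The cells were chosen from the same profiles, so that these shares describe likeness in expression and are no check of the name. Among the 15 nearest gated cells of a resident macrophage, 53.3% were resident macrophages, against 8.78% around the other gated cells, where resident macrophages made up 15.1% of all gated cells. The share was 41.3% for cells with 2 of the 4 genes, 56.9% for 3 and 75.4% for all 4. By group it was 55.1%, 51.5%, 56.2%, 41.6% and 54.3%, lowest in CD3e-/- TAC. The set is thus mixed at its edge. Ccr2 reached 500 CPM in 12.4%, 24.5%, 18.0%, 24.5% and 20.2% of the resident macrophages. Timd4, a phosphatidylserine receptor of long-lived resident macrophages, had a read in 22.8%, 18.9%, 18.8%, 11.3% and 19.0%.

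Genes of other cell types were low in the summed reads of the resident macrophages, apart from those of monocytes. Of B cell genes, Cd79a, which the rule limits, and Pax5 were at 0 in every group, while Cd79b was at 25.5, 58.9, 34.6, 12.3 and 25.4 CPM. The T cell list lay between 1.8 and 34.1 CPM and was highest in CD3e-/- sham. NK cells lay between 0 and 2.20 CPM, neutrophils between 5.28 and 21.2 CPM, and fibroblasts between 0 and 4.39 CPM with Col3a1 and Dcn at 0. Dendritic cells lay between 6.44 and 24.2 CPM with Xcr1, Clec9a and Ccr7 at 0, and cardiomyocytes between 16.5 and 103 CPM. The monocyte list was at 9.91, 12.8, 24.0, 224 and 1004 CPM, and its part in the differences of CD3e-/- TAC and of the CD8-depleted group is given beside them.

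Within the resident macrophages, Lyve1 and the only class II gene set against it tended to run in opposite directions, least so in the CD8-depleted group. Lyve1 had no read in 62.2% of the resident macrophages. Over cells thinned to 38041 reads (123, 49, 116, 50 and 74 cells, all from 1 library), the rank correlation of Lyve1 with H2-Aa, a chain of the class II molecule I-A, was -0.35, -0.44, -0.31, -0.38 and -0.13. That of Folr2 with H2-Aa was -0.35, -0.44, -0.34, -0.26 and -0.11, whereas that of Cd163 with H2-Aa was -0.05, 0.18, -0.14, 0.03 and 0.02. Lyve1 correlated with Folr2 at 0.52, 0.65, 0.38, 0.41 and 0.25. The rule asks for any 2 of 4 genes and so shapes correlations among them. Pf4 with F13a1, both outside the rule, gave 0.30, 0.27, 0.45, 0.17 and 0.29.

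For each comparison, the summed reads of the resident macrophages of 2 groups were set against each other. Ratios are log2 ratios of summed CPM with 10 CPM added to both groups, for genes with at least 50 CPM in 1 of them, and higher or lower means by at least 2-fold on that scale. The median ratio of all genes lay between 0.00 and 0.07 in the 5 comparisons. WT TAC serves in 3 of them, so that these share their reads. Where genes are ranked by their ratio, the ranks are among broadly read genes only, which are those with a read in at least 25% of the cells of the higher group and at most 25% of its reads there from a single cell. Genes outside these limits, such as Spp1, Retnla, Vsig4 or Plac8, can have larger ratios.

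The first comparison set the resident macrophages of WT TAC against those of WT sham. Relative to WT sham, immediate-early genes and some MHC class II genes were lower and genes of lipid-associated macrophages were higher in WT TAC. Of 3916 genes, 1.56% were higher and 1.48% lower. In the other gated cells, the summed levels of these lists went the same way from WT sham to WT TAC. Immediate-early genes were at 25429 and 15266 CPM there, class II genes at 43161 and 29532 CPM and lipid-associated genes at 16472 and 27056 CPM. Type I interferon-induced genes were at 1368 and 3563 CPM. The directions were thus not particular to the resident macrophages.

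Immediate-early genes are switched on within minutes by many stimuli, and the list also holds genes known to respond when tissue is digested into cells. Of its 25 genes, 18 were lower in WT TAC than in WT sham and 0 higher, with a median log2 ratio of -1.16. Fos, a subunit of the transcription factor AP-1, was at 5784, 4212, 2505, 1371 and 1760 CPM over the 5 groups, and at 2639, 1689, 106, 315 and 433 CPM in the median cell. Its partner Jun was at 3096, 1764, 1467, 847 and 1161 CPM, and Egr1 at 3804, 2759, 1442, 508 and 982 CPM. Both sham groups lay above all TAC groups in each of these 3 genes. The share of all genes that order the groups in this way was not computed, here or below, so such orderings are a description. The heat shock gene Hspa1a was at 890, 580, 218, 101 and 313 CPM, and Klf4, a transcription factor, at 1514, 1033, 420, 416 and 271 CPM. In cells with at least 3 of the 4 rule genes, 10 of 23 genes on the list were lower in WT TAC.

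Of 8 genes measured on a list for MHC class II presentation, called class II genes here, 3 were lower in WT TAC and 0 higher. Their median log2 ratio was -0.96. The 3 lower genes were H2-Aa, Cd74, which carries class II molecules to the endosome, and Ciita, the regulator that switches the class II genes on. H2-Aa was at 4435, 6153, 2206, 1735 and 2317 CPM, and its median cell held 1916, 7706, 0, 172 and 542 CPM. Cd74 was at 11125, 15568, 5551, 4592 and 5918 CPM and Ciita at 117, 71.6, 43.5, 37.7 and 53.4 CPM. Both sham groups were above the 3 TAC groups in all of these, again without a share over all genes to set beside it. The share of cells with under 500 CPM of H2-Aa was 40.0%, 22.6%, 62.5%, 54.7% and 50%, lowest in CD3e-/- sham and highest in WT TAC. Several genes lay close to the 2-fold limit, so that the count of 3 became 0 with 50 CPM added in place of 10 and to 1 with TMM or median-of-ratios scaling, and 6 in cells low in Ccr2 and Ly6c2.

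Class II promoters hold a Y box, a CCAAT sequence bound by the factor NF-Y, close to the start of transcription. The 250 bases before the start are shown for 3 of the class II genes that were lower in CD3e-/- TAC than in CD3e-/- sham, namely H2-Aa, H2-Eb1 (which encodes a chain of I-E) and H2-DMb1 (a chain of H2-DM, which loads peptides). They are from RefSeq on GRCm38.p6 and lie at chr17:34287824-34288073 on the minus strand, chr17:34305617-34305866 on the plus strand and chr17:34152941-34153190 on the plus strand. Capitals mark CCAATC or, for the other strand, GATTGG.
H2-Aa: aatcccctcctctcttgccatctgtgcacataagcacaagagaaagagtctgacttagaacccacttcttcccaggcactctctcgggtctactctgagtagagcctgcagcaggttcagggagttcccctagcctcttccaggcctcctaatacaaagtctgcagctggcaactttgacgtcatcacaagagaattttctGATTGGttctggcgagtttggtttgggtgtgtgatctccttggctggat
H2-Eb1: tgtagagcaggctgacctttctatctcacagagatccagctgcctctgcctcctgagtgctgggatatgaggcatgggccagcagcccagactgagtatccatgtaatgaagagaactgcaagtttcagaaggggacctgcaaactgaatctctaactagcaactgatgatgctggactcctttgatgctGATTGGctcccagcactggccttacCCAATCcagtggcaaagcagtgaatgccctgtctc
H2-DMb1: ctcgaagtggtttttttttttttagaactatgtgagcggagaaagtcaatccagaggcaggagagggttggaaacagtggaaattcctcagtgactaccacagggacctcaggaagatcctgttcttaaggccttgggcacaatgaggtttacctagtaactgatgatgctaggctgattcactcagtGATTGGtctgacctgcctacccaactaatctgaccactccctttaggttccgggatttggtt

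The motif began at -49 from the start in H2-Aa, at -60 and -35 in H2-Eb1 and at -62 in H2-DMb1. H2-DMa, which was also lower, has 2 promoters in the table, of which 1 held no motif and the other held it at -199. Of the 11 genes on the class II list, 6 were searched, with 7 promoters in all, of which 5 held the motif. Cd80, which is on the list but is not a class II gene, was among the 6 and held none. Of all 32851 promoters in the table, 14.6% held it within the same 250 bases. Promoters on chr18 were left out of the search of the list but are counted in this share. The match is a description of the letters and was not set against binding data.

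Genes of lipid-associated macrophages, a state of lysosome-rich cells that take up lipid and debris, were higher in WT TAC for 9 of 16 and lower for 0, with a median log2 ratio of 1.13. In cells with at least 3 of the 4 rule genes, 4 of 13 were higher. Ctsd, a lysosomal protease, was at 394, 739, 3097, 4205 and 1288 CPM, and at 138, 299, 809, 1256 and 478 CPM in the median cell. Ctsb, another lysosomal protease, was at 3264, 2932, 6762, 6664 and 4405 CPM, and Trem2, a lipid receptor, at 207, 328, 526, 490 and 364 CPM. All TAC groups were above both sham groups in these 3 genes, an ordering whose share over all genes was not computed. Spp1, which encodes osteopontin, was at 26.2, 37.5, 678, 390 and 75.3 CPM, but a single cell gave 45.5% of its reads in WT TAC. Gpnmb, a membrane glycoprotein of lysosome-rich macrophages, was at 0, 0, 131, 121 and 12.8 CPM, and Fabp5, a fatty acid carrier, at 5.61, 27.6, 137, 150 and 14.4 CPM. In both genes WT TAC and CD3e-/- TAC stood apart from the other 3 groups. Of 24 lysosomal genes, 2 were higher in WT TAC and 0 lower.

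Of 14 type I interferon-induced genes, 4 were higher in WT TAC and 0 lower. Irf7, a transcription factor of this response, was at 31.5, 17.5, 120, 103 and 198 CPM, and Isg15 at 20.4, 18.7, 59.6, 139 and 114 CPM. Both were above sham in every TAC group, which is again a description without a share over all genes. C4b, a complement component, was at 79.9, 81.1, 309, 527 and 202 CPM, and Ccl8, a chemokine of resident macrophages, at 15.9, 3.0, 327, 84.4 and 20.5 CPM, of which a single cell gave 39.7% in WT TAC. Tnf, an inflammatory cytokine, was at 82.5, 118, 20.4, 19.1 and 32.3 CPM, and was lower along with Nfkbiz and Tnfaip3 among 8 genes of the NF-kB list. Of 26 resident macrophage genes outside the rule, 2 were higher and 1 lower, with a median of -0.17.

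Among broadly read genes, the highest ratio in WT TAC was that of Fn1, which encodes fibronectin, at a log2 ratio of 3.87. Its median per cell was 17.9, 17.8, 16.7, 32.7 and 25.2 CPM, and the difference in summed reads of 39.7, 299, 719, 3628 and 478 CPM came from few cells. Fn1 was at 1000 CPM or more in 1, 1, 10, 15 and 4 resident macrophages, which is 0.690%, 1.89%, 7.81%, 28.3% and 4.76%, or 31 of 463 in all. This cell set was looked at after the levels of Fn1 were seen. Without those cells the log2 ratio of Fn1 in WT TAC over WT sham was -0.19. Ctsd (2.94), Fcgr4, an Fc receptor (2.08), Arhgap19 (1.91) and C4b (1.83) followed, and Hspa1a (-1.98), Ppp1r15a (-1.85), Klf4 (-1.83), Hspa1b (-1.70) and Atf3 (-1.68) stood at the other end.

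**Figure D4:**
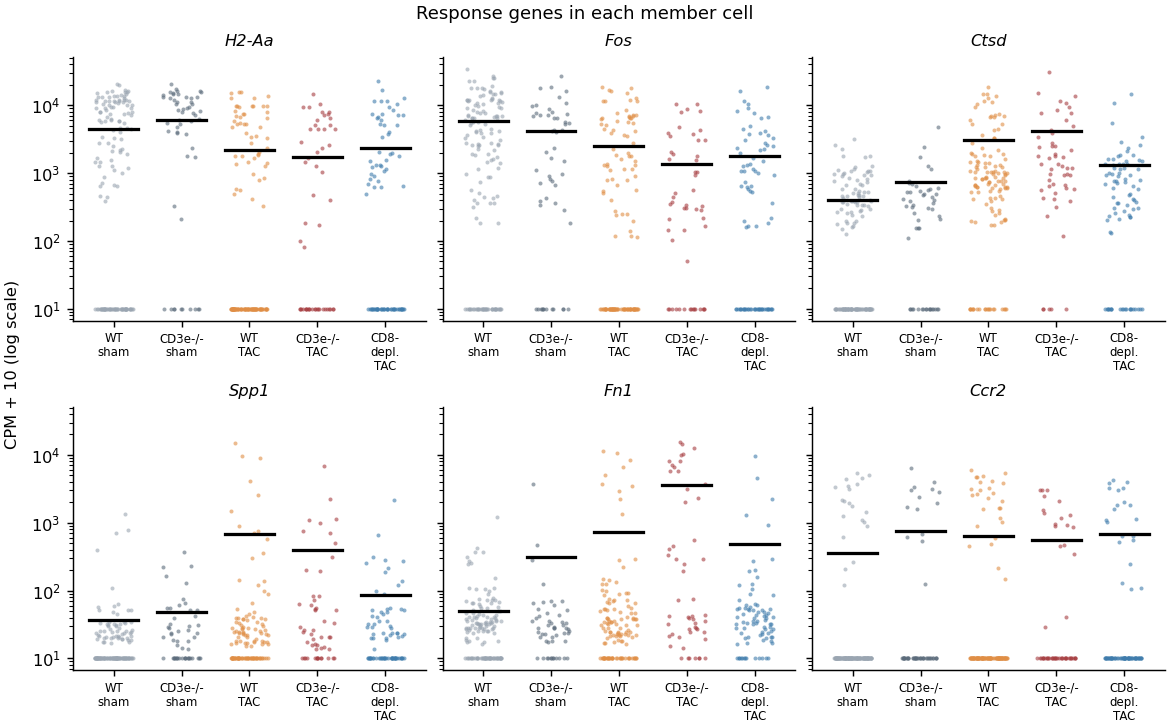
Level of H2-Aa, Fos, Ctsd, Spp1, Fn1 and Ccr2 in each resident macrophage, by group, in CPM with 10 added, on a log scale; points are cells and the bar is the level of the summed reads. H2-Aa and Fos bars are higher in both sham groups, Ctsd bars in the TAC groups, and the high Fn1 bar of CD3e-/- TAC (3628 CPM) stands above most of its points.

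The second comparison set CD3e-/- TAC against CD3e-/- sham, to see the response to pressure overload without T cells. Immediate-early and class II genes were again lower after TAC, and glycolytic and interferon-induced genes were higher. Of 4031 genes, 5.38% were higher and 4.24% lower, both from 53 cells a group. Of 25 immediate-early genes 15 were lower and 0 higher, with a median of -1.09. Of 9 class II genes 6 were lower and 0 higher, with a median of -1.54. Besides H2-Aa and Cd74, the 6 were H2-Ab1 (3258, 4992, 1727, 1405 and 1763 CPM), H2-Eb1 (3042, 4803, 1517, 1288 and 1632 CPM), H2-DMa and H2-DMb1. H2-Aa, Cd74, H2-Ab1 and H2-Eb1 were highest in CD3e-/- sham among the 5 groups. In the other gated cells, the summed level of immediate-early genes went from 23984 CPM in CD3e-/- sham to 15322 CPM in CD3e-/- TAC. That of class II genes went from 45888 to 27701 CPM, of glycolytic genes from 4479 to 5611 CPM and of interferon-induced genes from 1491 to 4784 CPM. All had the same direction as in the resident macrophages.

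Of 17 lipid-associated genes 8 were higher and 2 lower (median 0.95). Lgals3, a galectin of activated macrophages, was at 110, 700, 482, 1660 and 403 CPM, highest in CD3e-/- TAC, and a single cell gave 69.8% of its reads in CD3e-/- sham. Of 20 interferon-induced genes 12 were higher and 0 lower (median 1.32), and 3 of 10 in cells with at least 3 of the 4 rule genes. Of 14 glycolytic genes 10 were higher and 0 lower (median 1.11). Ldha, which makes lactate, was at 154, 206, 195, 615 and 287 CPM, and Slc16a3, which exports it, at 14.7, 17.5, 18.1, 130 and 43.2 CPM. CD3e-/- TAC was highest in both.

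The glycolytic count depended on the Fn1-high cells, a set chosen after seeing the data. Without them 3 of 11 glycolytic genes were higher (median 0.48), whereas 12 of 16 lipid-associated genes were higher and 1 lower. In CD3e-/- TAC, the 15 cells with at least 1000 CPM of Fn1 held 1082 CPM of Ldha against 285 CPM in the other cells, 252 against 43.9 CPM of Slc16a3 and 3898 against 612 CPM of Srgn, a granule proteoglycan. They held 212 against 1232 CPM of Pf4, 490 against 1977 CPM of Mrc1, the mannose receptor, and 77.5 against 204 CPM of Cd163. Folr2 was alike at 580 and 598 CPM, and Cbr2 at 829 and 743 CPM. Lyve1 was at 325 against 682 CPM, and Ccr2 at 978 against 245 CPM. These cells were thus close to the rest in Folr2 and Cbr2, both genes of the rule, lower in Lyve1, Pf4, Mrc1 and Cd163 and higher in Ccr2. Gata6, which marks macrophages of the body cavities, had no read in them and a read in 0, 1, 0, 2 and 0 resident macrophages. It had a read in only 1.08% of the other gated cells, so its absence from 15 cells tells little. The rule had also left out cells with 1000 CPM or more of Saa3. Likeness to cavity macrophages was not tested.

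Tgm2, a transglutaminase, was at 1.23, 0, 10.3, 301 and 99.6 CPM, with no read in CD3e-/- sham. In CD3e-/- TAC it was at 646 CPM in the Fn1-high cells and 57.3 CPM in the rest. Srgn was at 435, 378, 407, 1973 and 527 CPM. Both were highest in CD3e-/- TAC. Other high ratios of broadly read genes were Pdlim7 (2.62), C4b (2.56), Ctsd (2.49), Cd38, an enzyme that consumes NAD (2.46), and the kinase Fgr (2.45). The lowest of the broadly read genes were Egr1 (-2.42), Clec4b1 (-2.17), Tnf (-2.14), Ttc28 (-2.10) and the kinase Snrk (-2.05).

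The third comparison, CD3e-/- sham against WT sham, showed the resident macrophages without T cells and without pressure overload. Of 3971 genes, 1.79% were higher and 1.99% lower. Of the genes beyond 2-fold 47.3% were thus the higher ones, and 57.9% with median-of-ratios scaling. Of 8 class II genes 0 were higher and 0 lower by 2-fold, although their median was 0.40 and the summed level of the list 32707 CPM against 23072 CPM. Of 7 genes of monocytes and recruited macrophages 4 were higher and 0 lower (median 1.08). S100a4, a calcium-binding protein of recruited cells, was at 121, 400, 225, 622 and 522 CPM, lowest in WT sham, and Ccr2 was at 349, 748, 627, 549 and 664 CPM, also lowest there. Of 13 lipid-associated genes 5 were higher and 0 lower, but 1 of 11 without the Fn1-high cells or without the deepest cell of each group. Both of these leave 2 of 5 recruited macrophage genes higher. In the other gated cells, the summed level of recruited macrophage genes went from 7111 CPM in WT sham to 8030 CPM in CD3e-/- sham. That of class II genes went from 43161 to 45888 CPM and of lipid-associated genes from 16472 to 14982.5 CPM.

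Of 25 resident macrophage genes outside the rule, 4 were lower in CD3e-/- sham than in WT sham and 0 higher (median -0.42). The 4 were Vsig4, a complement receptor, Ednrb, an endothelin receptor, Slc40a1, the iron exporter, and Ccl24, a chemokine for eosinophils. Ccl24 was at 188, 66.9, 110, 57.4 and 92.5 CPM, highest in WT sham. Mgl2, a lectin of resident and IL-4-treated macrophages, was at 972, 1207, 632, 189 and 442 CPM, and Mrc1 at 2735, 1904, 2550, 1361 and 2392 CPM.

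Nnt, a mitochondrial enzyme that makes NADPH, had the lowest ratio of the broadly read genes in this comparison (-1.73). It was at 66.0, 12.8, 49.3, 8.70 and 45.9 CPM in the resident macrophages and at 35.2, 13.8, 30.6, 12.9 and 33.1 CPM over all kept cells. Both CD3e-/- groups were below the 3 WT groups. Part of this gene is deleted in the C57BL/6J substrain but not in C57BL/6N, and in these data genotype and a difference in substrain cannot be told apart. Ahr, the aryl hydrocarbon receptor (-1.58), was the next lowest, and Gda, guanine deaminase (1.72), Idi1, an enzyme of isoprenoid synthesis (1.67), and Fam129b (1.66) were the highest, again among broadly read genes.

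The fourth comparison, CD3e-/- TAC against WT TAC, showed the loaded heart with and without T cells. Genes of glycolysis and of recruited cells were higher in CD3e-/- TAC, and the lectins Clec10a and Mgl2 lower. Of 3964 genes, 3.56% were higher and 1.97% lower, so that 64.4% of the genes beyond 2-fold were the higher ones. That balance turned without the Fn1-high cells, where 45.7% were the higher ones, and was 53.5% in cells low in Ccr2 and Ly6c2 and 73.4% with median-of-ratios scaling. Of 15 glycolytic genes 9 were higher and 0 lower (median 1.15). Aldoa was at 231, 344, 264, 747 and 431 CPM and Pgk1 at 59.1, 64.9, 76.3, 263 and 181 CPM, both highest in CD3e-/- TAC. Without the Fn1-high cells 4 of 12 were higher (median 0.56). Of 23 immediate-early genes 1 was higher and 2 lower (median -0.31), and without the Fn1-high cells 14 of 22 were lower and 0 higher (median -1.16). In the other gated cells, the summed level of glycolytic genes went from 5002 CPM in WT TAC to 5611 CPM in CD3e-/- TAC. That of recruited macrophage genes went from 9839 to 12600 CPM. Neither direction was thus particular to the resident macrophages.

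Of 10 genes of monocytes and recruited macrophages 7 were higher and 0 lower (median 1.45), and without the Fn1-high cells 3 of 8 were higher and 1 lower. Ly6c2, the defining gene of inflammatory monocytes, was at 8.68, 10.8, 8.56, 81.2 and 451 CPM, and 0, 0, 0, 1 and 2 resident macrophages held 1000 CPM of it. Plac8 was at 0, 0, 2.12, 121 and 461 CPM. Both were highest in the CD8-depleted group, where a single cell gave 75.4% of the Ly6c2 reads, and Ly6c2 in B cells was at 47.4, 18.0, 257, 30.7 and 7.52 CPM.

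Of 25 resident macrophage genes outside the rule, 5 were lower in CD3e-/- TAC and 2 higher (median -0.59), and 10 of 26 were lower in cells with at least 3 of the 4 rule genes. The lectin Clec10a was at 62.4, 46.5, 99.6, 7.15 and 36.7 CPM, and Hpgd, which breaks down prostaglandins, at 859, 739, 595, 235 and 483 CPM. Along with Mgl2, both were lowest in CD3e-/- TAC. Vsig4 was at 80.0, 0, 19.5, 571 and 21.6 CPM, with 52.1% of its reads in CD3e-/- TAC from a single cell, and Ltc4s, which makes leukotriene C4, at 173, 134, 162, 652 and 144 CPM, both highest there. In the Fn1-high cells of CD3e-/- TAC, Ltc4s was at 1239 CPM, against 236 CPM in the rest.

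Of 11 genes induced by IL-4 or glucocorticoid, 1 was higher in CD3e-/- TAC than in WT TAC and 4 lower (median -0.83), Cd163, a gene of the rule, among them. Arg1, arginase, was the gene that was higher, at 0, 11.0, 101, 2006 and 7.68 CPM, with a read in 20.8% of the cells of CD3e-/- TAC. Retnla, a secreted protein induced by IL-4, was at 63.9, 324, 453, 12.5 and 11.4 CPM, and a single cell gave 83.1% of its reads in CD3e-/- sham and 51.2% in WT TAC. Its level in B cells was 11.1, 19.9, 8.75, 11.1 and 12.2 CPM, so that CD3e-/- TAC and the CD8-depleted group stood at that level. Retnla, Mgl2, Clec10a and Cd163 were lower, so that genes of the same list stood on both sides.

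Of 10 growth and repair factors, 2 were higher in CD3e-/- TAC and 1 lower. Osm, which encodes oncostatin M, was at 5.79, 32.8, 29.5, 159 and 35.4 CPM, and at equal depth a read was seen in 3.25%, 8.16%, 7.76%, 24.0% and 12.2% of the cells, against 0% to 2.90% in B cells. Metrnl was at 245, 330, 225, 468 and 307 CPM and Vegfb at 32.5, 26.0, 58.9, 13.3 and 49.3 CPM. Osm and Metrnl were highest in CD3e-/- TAC, and Vegfb lowest. Igf1, insulin-like growth factor 1, was at 437, 346, 566, 521 and 499 CPM and did not differ by 2-fold in any comparison. Areg, amphiregulin, was at 3.07, 11.5, 4.90, 48.2 and 0 CPM, and at equal depth a read was seen in 0% to 4.08% of the cells.

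Chemokines were higher in CD3e-/- TAC for 6 of 13 and lower for 1 (median 0.77), and higher for 3 of 13 without the Fn1-high cells. Ccl12 was at 210, 178, 323, 656 and 612 CPM and was among the 6, with Ccl6, Ccl9, Cxcl2, Cxcl10 and Cxcl14, and Ccl8 was the gene that was lower. Among broadly read genes, Bhlhe40, a transcription factor (2.42), Emp1, a membrane protein (2.32), and Fam129b (2.28) were among the highest, and Igsf11 (-2.02) and Chp2 (-1.81) were among the lowest.

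The fifth comparison, the CD8-depleted group against WT TAC, showed the smallest counts at the main settings. With genes from 10 CPM on, and in cells with at least 3 of the 4 rule genes, WT TAC over WT sham had fewer. Of 3963 genes, 1.03% were higher and 0.959% lower. Of 16 lipid-associated genes 5 were lower and 0 higher (median -0.58), and 2 of 13 in cells with at least 3 of the 4 rule genes. The 5 were Spp1, Gpnmb, Fabp5, Ctsd and Atp6v0d2, a subunit of the lysosomal proton pump. In the other gated cells, the summed level of the list also fell, from 27056 CPM in WT TAC to 21795 CPM in the CD8-depleted group. In the summed level of Spp1, Gpnmb and Fabp5 the CD8-depleted group lay near both sham groups, and for Ctsd it lay between sham and WT TAC. At equal depth, a Spp1 read was seen in 35.3% of the resident macrophages of WT TAC and 35.1% of the CD8-depleted group. In B cells it was seen in 28.3% and 27.5%. In WT TAC the 10 cells with at least 1000 CPM of Fn1 held 4519 CPM of Spp1, against 85.0 CPM in the rest. Of 8 class II genes 0 were higher and 0 lower (median 0.10), and of 18 interferon-induced genes 0 were higher and 1 lower (median 0.53).

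Of 9 genes of monocytes and recruited macrophages 4 were higher in the CD8-depleted group and 0 lower (median 0.38). In the other gated cells, the summed level of this list went from 9839 CPM in WT TAC to 11582 CPM in the CD8-depleted group. In resident macrophages with under 500 CPM of Ccr2 and 1000 CPM of Ly6c2, 0 of 6 were higher and 0 lower (median -0.24). S100a6, a calcium-binding protein, had the highest ratio among broadly read genes (1.53), at 147, 338, 166, 570 and 499 CPM. S100a4 (1.18) turned to -0.33 in the cells low in Ccr2 and Ly6c2. Of 11 genes induced by IL-4 or glucocorticoid 1 was higher and 3 lower (median -0.50), and Fkbp5, a target of the glucocorticoid receptor, was the higher one (1.52), at 47.6, 30.6, 13.2, 21.9 and 56.3 CPM. Flot2 (1.32) and Pgk1 (1.15) were also higher, and Gpr155 (-1.45), Igsf11 (-1.40) and Neat1, a nuclear long non-coding RNA (-1.28), were lower.

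**Figure D5:**
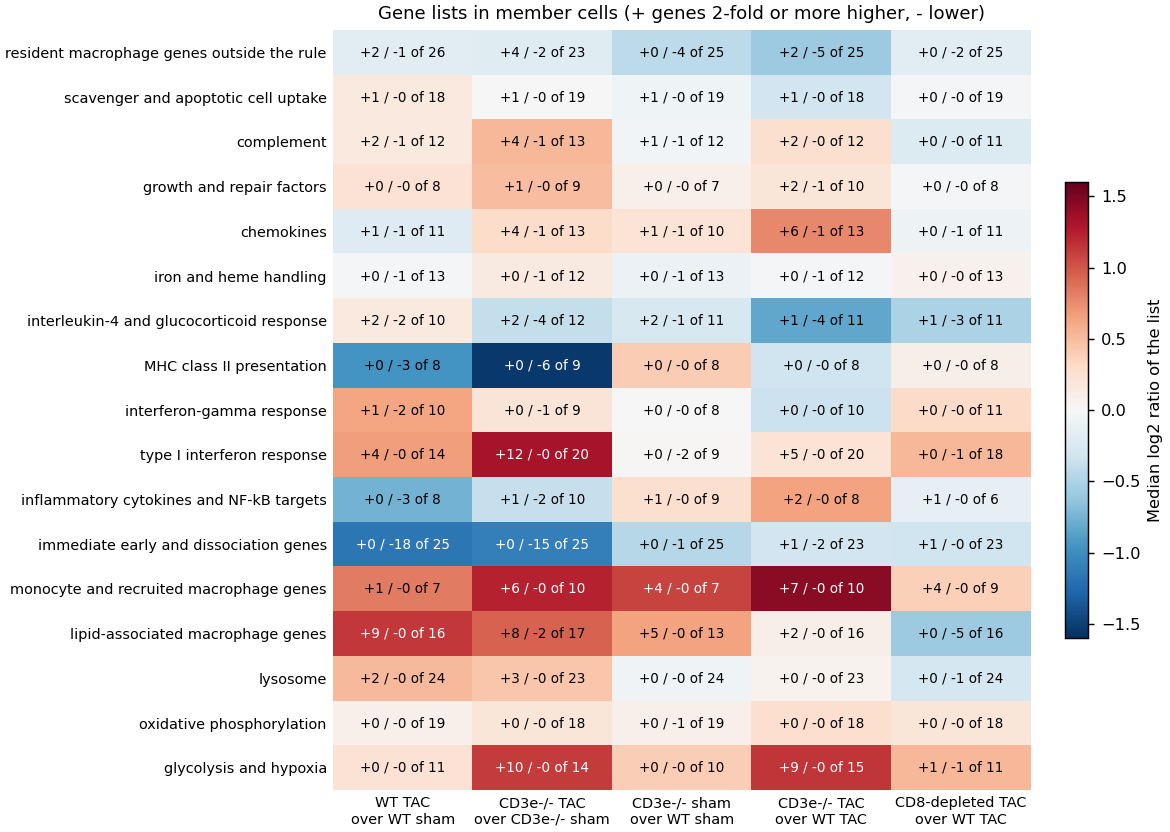
Median log2 ratio of summed CPM (10 added) for each gene list in each of the 5 comparisons of resident macrophages; colour gives the median, and each cell gives the genes at least 2-fold higher (+) and lower (-) of those measured. Immediate-early genes have their lowest medians in both comparisons of TAC with sham (-1.16 and -1.09), and glycolysis has its highest in CD3e-/- TAC over CD3e-/- sham (1.11) and over WT TAC (1.15).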

How the data were processed

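CD45+ cells of 5 groups of mouse hearts were measured in 1 pooled TAS-Seq library. The matrix deposited by the authors holds raw counts, which are whole numbers of reads per gene and cell without normalization. Per the methods, the authors assigned hashtags and removed doublets, and the name of the matrix tells of barcodes kept above an inflection point and of error correction by read distribution. The submitters' processing notes name cutadapt 2.10, Bowtie2 2.4.2 and GRCm38. Of 5363 columns, 48 without a group (called doublets or without a hashtag by the authors) were not used, and no further doublet caller was run. Groups were read from the hashtag key deposited with the matrix, since the labels describe the pool only.

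Cells with at least 500 genes and a mitochondrial share of at most 0.4 were kept. Reads of the chosen cells were summed per group and divided by their total. Genes of at least 50 CPM in 1 of 2 groups were compared with 10 CPM added. Each group was 1 sample, so that no test was made. Shares have exact Clopper-Pearson intervals, differences of shares Newcombe intervals and levels exact Poisson intervals, all of 95%. For shares of cells with a read, cells were thinned to 38041 reads (10th percentile of gated cells), and shallower cells were left out. Neighbours were found with 2000 variable genes and 30 principal components. The genes, their lists and the cells were chosen with earlier results of these data known.

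Named genes were the 7 markers, any gene of a list, given with the count of the list, the 15 leading genes over other gated cells, and per comparison the 8 highest and 8 lowest ratios among genes with a read in at least 25% of the cells of the higher group and at most 25% of its reads from a single cell. Mitochondrial, immunoglobulin, Gm-numbered and Rik genes were left out of the last 8. Genes named beside these were looked up after their values were seen. Promoters came from a RefSeq table. Python was version 3.11.15, with pandas 2.3.3 for tables, scipy 1.17.1 for intervals, numpy 2.4.6 and, for plots, matplotlib 3.10.9. R 4.3.3 was used with edgeR 4.0.16 and DESeq2 1.42.0 for scaling factors only. The step that forms the ratios was tested on simulated sums for CD3e-/- sham over WT sham, drawn without differences between cells. The other steps were not tested on simulated data. Alternatives were the marker limit (50 and 200 CPM), the number of markers, the gates, the cell filter, depth, the CPM added (1 and 50), the gene filter (10 CPM), TMM and median-of-ratios scaling, means over cells, cells low in Ccr2 and Ly6c2, and leaving out the deepest cell of each group. Leaving out cells with at least 1000 CPM of Fn1 was added after seeing the data.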

Additional observations from a re-analysis of the deposited data

Results flagged for a closer look

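In 3 of the genes with the largest ratios of CD3e-/- TAC over CD3e-/- sham, the summed level of the resident macrophages went in opposite directions after TAC in the 2 genotypes. Srgn, a proteoglycan of secretory granules, had a log2 ratio of TAC over sham of -0.10 in WT and 2.35 in CD3e-/- hearts. Fads1, a fatty acid desaturase, had 0.16 in WT and -1.88 in CD3e-/- hearts. Ttc28 had 0.45 in WT and -2.10 in CD3e-/- hearts. The WT ratios were small in all 3. With 1 sample per group the difference between the genotypes was not tested.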

How the results depend on the processing

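None of the 5 differences in the share of resident macrophages changed sign under the 7 alternatives run for the choice of cells, and their intervals were not computed again under these. The numbers of genes at 2-fold or more were 119, 388, 150, 219 and 79 in the order of the comparisons. With 1 CPM added they were 194 in WT TAC over WT sham, 254 in CD3e-/- sham over WT sham and 150 in the CD8-depleted group over WT TAC. With 50 CPM added they were 44, 127, 21, 84 and 18, and with genes from 10 CPM on 304, 960, 580, 520 and 327. In cells with at least 3 of the 4 markers they were 190, 888, 430, 675 and 266, from fewer cells. In cells low in Ccr2 and Ly6c2 they were 233 in CD3e-/- sham over WT sham and 137 in the CD8-depleted group over WT TAC. The cause of these shifts was not tested. Of named genes, Fn1 in WT TAC over WT sham turned to -0.19 without cells of at least 1000 CPM of Fn1, and S100a4 in the CD8-depleted group over WT TAC to -0.33 in cells low in Ccr2 and Ly6c2. The others of the 16 ranked genes of each comparison kept their direction, but with 50 CPM added only 4 of 16 were still at 2-fold or more in CD3e-/- sham over WT sham and 4 of 16 in the CD8-depleted group over WT TAC. The direction of list genes was not followed gene by gene. Median-of-ratios scaling moved the share of higher genes among those called in CD3e-/- sham over WT sham from 47.3% to 57.9%, and put the median of all genes in CD3e-/- TAC over WT TAC at 0.13. No paired analysis was possible because each group was 1 sample, and for the same reason no sample could be left out. With 53 cells in each CD3e-/- group, genes read in few cells were not measured well.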
